A study of Mus musculus with 19 samples.

Results

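The genes described here are 37 genes of the lysosome, measured in hippocampal RNA of mice that model amyloid pathology and carry or lack an inducible adenosine A2A receptor transgene. They were chosen by name from a list of lysosomal proteases, hydrolases and membrane proteins, out of 35842 genes in the count table, and all 37 were among the 18529 genes with enough counts to test. RNA came from the hippocampus of 1 hemisphere of 19 female mice, each mouse being 1 library: 4 APP/PS1 A2A mice and 5 each of WT, A2A and APP/PS1. APP/PS1 mice were heterozygous for the APPswe and PS1dE9 transgenes on the C57Bl6/J background. A2A mice carried the mouse receptor cDNA under a Tet-responsive element, and APP/PS1 A2A mice carried all of these. Every mouse, WT included, had been injected at 3 months on both sides of the dorsal hippocampus (CA1) with an AAV2/5 vector that encodes the tTA transactivator under the CBA promoter, and was killed at 6 months, so WT here means vector-injected and without either transgene. The vector reaches the injected area, whereas the RNA came from the whole dissected hippocampus.

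Lysosomes are acidic compartments that digest proteins, sugars and lipids delivered by endocytosis, phagocytosis and autophagy. Proteases of the cathepsin family, glycosidases, sulfatases and lipid hydrolases do the digestion, heavily glycosylated proteins such as LAMP1 line the membrane, and transporters export the products. All brain cells have lysosomes, but microglia, the phagocytes of the brain, express some of these genes at far higher levels than neurons do, and microglia gather around amyloid plaques. In bulk tissue, fewer cells of a type and less RNA per cell cannot be told apart.

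Levels below are CPM, counts relative to the TMM-adjusted total of the library, and differences are log2 fold changes with their standard error (SE) from 1 edgeR fit to all 19 mice. Calls required an absolute log2 fold change over 0.32 and a p under 0.05 after Benjamini-Hochberg adjustment over all 18529 genes. Library totals ran from 21305902 to 53717373 counts, and the lowest count of any member in any mouse was 202. App rose in both comparisons of carriers with non-carriers, from 1381 to 1920 CPM in the 10 mice without the APP/PS1 transgenes to between 3282 and 4499 CPM in the 9 carriers, with no overlap. Adora2a, the gene of the receptor, gave no clear check of the A2A labels: 4 of 5 A2A and 2 of 4 APP/PS1 A2A mice lay above all 10 mice without that transgene (1.09 to 1.83 CPM), while the lowest A2A mouse was at 0.865 CPM. The transgene carries an optimized cDNA of the receptor, and whether its reads align to Adora2a is not given in the sources used here, so low counts of the gene do not show that the transgene was silent. In A2A and APP/PS1 A2A, mouse 1 stood highest in Adora2a, at 9.35 CPM (next 2.27) and 10.3 CPM (next 1.96). By qPCR the paper detected mRNA of the transgene in A2A and APP/PS1 A2A animals alone, at like levels. In these counts, statements on the A2A transgene therefore rest on the labels. Each of 6 hippocampal marker genes was detected, with a summed level of 772 to 1438 CPM. Mice are numbered within a group in order of deposition. Amounts of neighbouring tissue differed: the summed level of 10 choroid plexus markers ran from 217 to 14700 CPM across the 19 mice.

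Compared per kilobase of exon, the members spanned a wide range. Psap, the precursor of the saposins that help degrade sphingolipids, stood far above the rest at 582 CPM per kilobase. It was followed by the membrane glycoprotein gene Lamp1 (112), the aspartic protease gene Ctsd (110), the cysteine protease gene Ctsb (100.1) and Gaa (84.5), the acid glucosidase that degrades glycogen, all in CPM per kilobase. Second in their classes were Hexa (28.3), a subunit of the enzyme that degrades GM2 ganglioside, Ppt1 (32.5), which removes palmitate from proteins, and Tmem106b (37.6), which encodes a lysosomal membrane protein, in the same unit. The lowest members were Ctsh (2.63) and Ctsc (2.84), a pair of proteases that trim peptides from their amino ends, again in CPM per kilobase. Psap ranked first also by the study's median transcript length, but at 602 CPM per kilobase its lead over Ctsb (477) and Gaa (454) was small. Its wide lead therefore holds for exon length only. Ctsd ranked 3 by exon length and 9 by transcript length. Mcoln1 moved from 27 to 10, Hexa from 12 to 25 and Laptm5 from 24 to 11. By transcript length Tmem106b (345) stood above Lamp1 (211), and the lowest members were Gla and Galns. The order below Psap, the second places and the lowest members given above therefore hold for exon length only.

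The APP/PS1 genotype was examined first as the average of its effect without and with the A2A transgene, which sets 9 carriers against 10 non-carriers. Cd68 was the only member called, and it rose by 0.77 on the log2 scale, or 1.71-fold (SE 0.12, 95% interval 0.52 to 1.02, edgeR adjusted p = 0.00467). Over all genes 35 were called, or 0.189%. At an unadjusted p under 0.05, 12 of the 37 members were higher and 0 were lower, against 2.74% of all tested genes higher and 3.51% lower. The median log2 fold change of the members was 0.05 and that of all genes was -0.00, and 26 of 37 members were above 0 (70.3%, against 49.5% of all genes). By class, the 12 comprised 6 of 12 proteases, 3 of 8 glycosidases, 1 of 9 genes of lipid degradation and 2 of 8 membrane proteins, and a difference between classes was not tested.

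**Figure D1:**
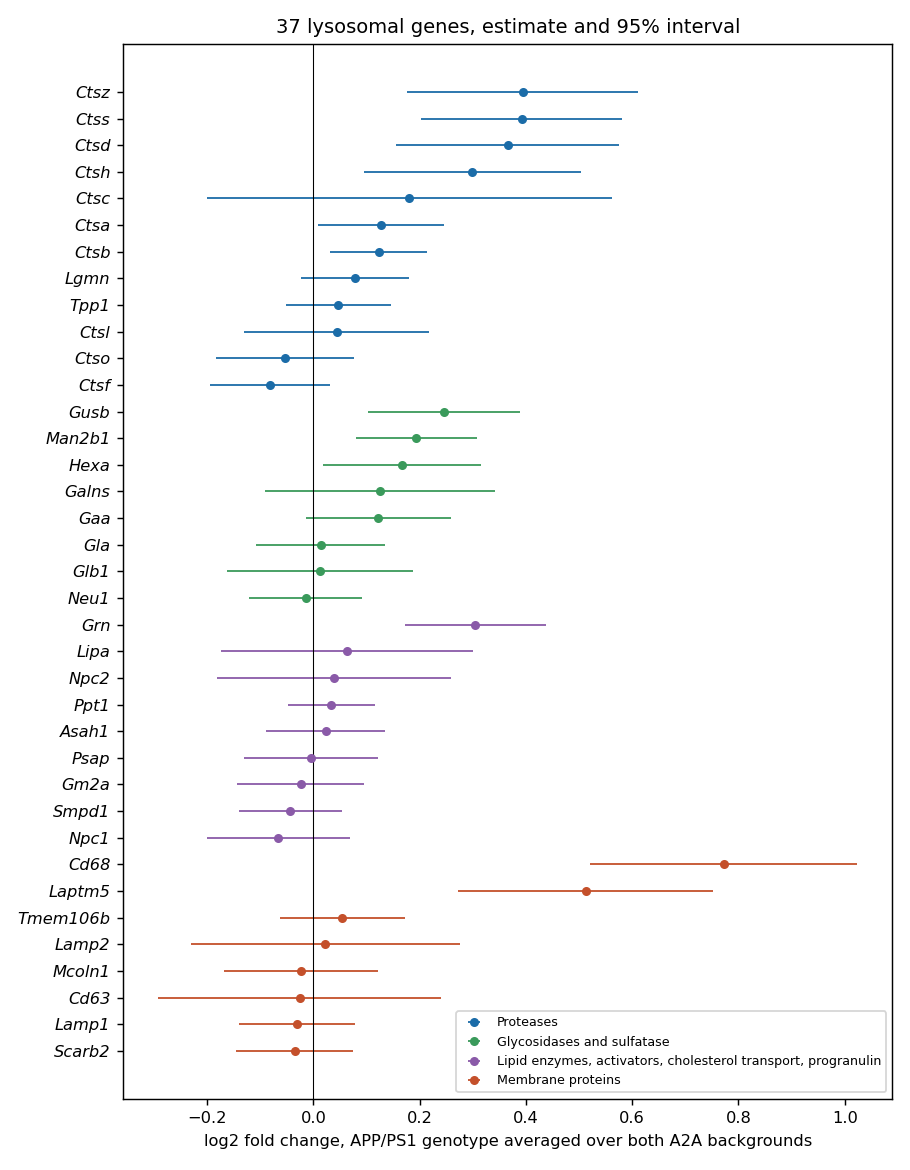
Log2 fold change of each of the 37 members for the APP/PS1 genotype averaged over both A2A backgrounds (points) with its 95% interval (bars), from 19 mice, coloured by role. Cd68 has the highest estimate at 0.77, Laptm5 follows at 0.51, and 25 of the intervals include 0.

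Cd68, on chromosome 11 from 69664213 to 69666153 of mm10, encodes a heavily glycosylated membrane protein of late endosomes and lysosomes in phagocytes. Its level was 9.25, 9.11, 9.26, 7.18 and 8.13 CPM in WT mice 1 to 5 and 9.21, 10.7, 8.39, 9.82 and 7.84 CPM in A2A mice 1 to 5. It was 17.7, 13, 16.7, 8.52 and 16.1 CPM in APP/PS1 mice 1 to 5 and 20.7, 14.3, 13.8 and 15.3 CPM in APP/PS1 A2A mice 1 to 4. Of the 9 carriers, 8 lay above all 10 non-carriers, and APP/PS1 mouse 4 lay within the non-carriers. Without that mouse the averaged difference was 0.84 by edgeR (adjusted p = 8.23e-05). In that fit 4 members were called instead of 1, the others being Laptm5 (0.57), Ctss (0.43) and Grn (0.34). The mouse is named here for its low Cd68, so a larger difference of Cd68 without it is no further evidence. The share of all genes called in that fit is not given here. Taken singly, the difference of Cd68 was 0.75 in APP/PS1 versus WT (SE 0.17, adjusted p = 0.337) and 0.80 in APP/PS1 A2A versus A2A (SE 0.17, adjusted p = 0.138), neither of them called by edgeR. DESeq2 called both, at adjusted p = 0.0175 and 0.00503.

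The markers of homeostatic microglia also had higher estimates in carriers. All 12 were above 0 in the averaged comparison, 7 of them at an unadjusted p under 0.05 and 0 called, with a median of 0.23, and none was at 0 counts in all mice. Their summed level was 437 to 505 CPM in WT, 426 to 529 in A2A, 428 to 621 in APP/PS1 and 534 to 695 in APP/PS1 A2A. APP/PS1 mouse 4 had the lowest sum of its group (428 CPM) and APP/PS1 A2A mouse 1 the highest of all (695 CPM), as for Cd68 in both cases. Not every mouse followed: A2A mouse 5 had the highest sum of its group (529 CPM) and the lowest Cd68 (7.84 CPM). With the mean level of these markers as a term in the fit, chosen after the data were seen, Cd68 was at 0.41 (SE 0.11, adjusted p = 0.216) and 0 members were called. Of 15 genes of plaque-associated microglia, 13 were above 0 and 8 were called higher, among them Cst7 and Clec7a, against 0.189% of all genes called. The other 2 were below 0, 1 of them at an unadjusted p under 0.05 and 0 called. The paper already named Cst7, Clec7a and other genes of this list, and Cd68, as higher in APP/PS1 than in WT mice. The list was chosen with earlier results of these data known, so its calls are no independent support. The median log2 fold change of the 15 genes was 0.74. Their summed level, in which the most abundant genes weigh most, did not rise with the genotype. It was 1333 to 1756 CPM in WT, 1249 to 1711 in A2A, 1306 to 1795 in APP/PS1 and 1288 to 1426 in APP/PS1 A2A. The sum therefore does not describe the 15 genes alike. Because the 12 homeostatic markers were themselves higher in carriers, the fit with their term cannot divide the difference of Cd68 between genotype and microglia. The part of microglial number or state in the level of Cd68 was not tested.

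**Figure D2:**
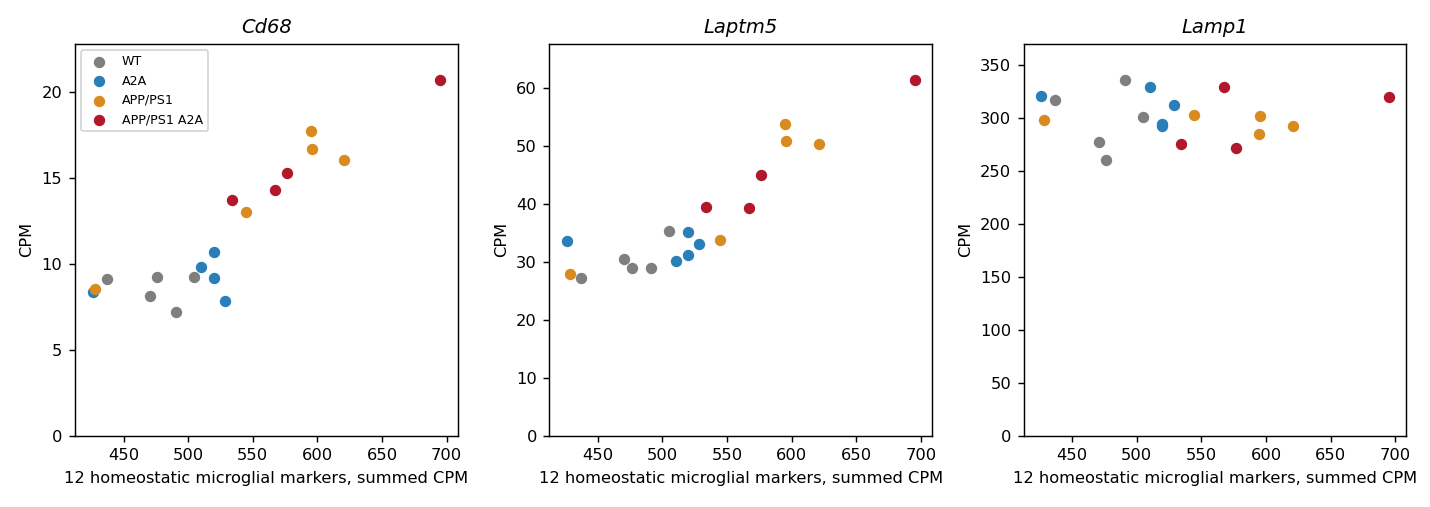
Level of Cd68, Laptm5 and Lamp1 (CPM) in each of 19 mice against the summed CPM of 12 homeostatic microglial markers, coloured by group. Cd68 and Laptm5 are highest in APP/PS1 A2A mouse 1, where the marker sum is 695 CPM, and low in APP/PS1 mouse 4, where it is 428 CPM, while Lamp1 stays between 261 and 336 CPM.

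Laptm5, the other membrane member at an unadjusted p under 0.05, encodes a lysosomal membrane protein of blood-derived and microglial cells. It measured 29.0, 27.2, 35.2, 28.9 and 30.5 CPM in WT and 35.2, 31.1, 33.6, 30.2 and 33.1 CPM in A2A. In carriers it measured 53.7, 33.7, 50.8, 27.9 and 50.3 CPM in APP/PS1 and 61.4, 39.3, 39.5 and 44.9 CPM in APP/PS1 A2A. The APP/PS1 A2A mice lay above all A2A mice, whereas APP/PS1 mice 2 and 4 lay within WT. The averaged log2 fold change was 0.51 (SE 0.11, edgeR adjusted p = 0.112), which was not called. The membrane proteins that every cell uses were near 0: Lamp1 at -0.03 (SE 0.05), Lamp2 at 0.02 (SE 0.12), Scarb2, the receptor that carries glucocerebrosidase to lysosomes, at -0.04 (SE 0.05) and Tmem106b at 0.05 (SE 0.06). Mcoln1, a cation channel that releases calcium from lysosomes, was at -0.02 (SE 0.07) and the tetraspanin gene Cd63 at -0.03 (SE 0.13). The median of the 8 membrane members was -0.00.

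Among proteases, the cysteine cathepsin gene Ctss, whose product also cuts the invariant chain in antigen-presenting cells, had the smallest p. It measured 69.8, 74.1, 81.8, 80.4 and 74.5 CPM in WT, and 95.8, 85.6, 60.0, 91.3 and 85.4 CPM in A2A. Carriers had 100.9, 94.2, 107, 77.8 and 110 CPM in APP/PS1 and 142, 110, 93.5 and 102 CPM in APP/PS1 A2A. In each background 1 carrier lay within the range of its non-carriers, and 6 of 9 carriers lay above all 10 non-carriers. The averaged log2 fold change was 0.39 (SE 0.09, edgeR adjusted p = 0.135).

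Ctsz, a cysteine carboxypeptidase gene, followed. WT mice had 28.5, 37.7, 32.2, 35.6 and 39.1 CPM and A2A mice 39.0, 34.2, 26.3, 44.3 and 32.6 CPM. APP/PS1 mice had 52.8, 44.5, 54.8, 40.2 and 43.5 CPM and APP/PS1 A2A mice 58.8, 44.8, 38.7 and 36.8 CPM. The APP/PS1 mice all lay above WT, and the APP/PS1 A2A mice overlapped with A2A. The averaged value was 0.39 (SE 0.10, edgeR adjusted p = 0.273), and DESeq2, unlike edgeR, called both Ctsz and Ctss.

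Ctsd, the main aspartic protease of lysosomes, measured 166, 262, 199, 260 and 283 CPM in WT and 231, 192, 211, 279 and 195 CPM in A2A. In APP/PS1 mice it was 312, 292, 296, 281 and 285 CPM, and in APP/PS1 A2A mice 365, 277, 291 and 240 CPM. The 5 APP/PS1 mice lay close together, while the WT mice were widely spread and WT mouse 5 lay within APP/PS1. The averaged log2 fold change was 0.37 (SE 0.10, edgeR adjusted p = 0.311). Ctsh at 0.30 (SE 0.10), Ctsb at 0.12 (SE 0.04) and Ctsa, the protective protein of the lysosomal sialidase and galactosidase, at 0.13 (SE 0.06) were also at an unadjusted p under 0.05. The remaining proteases were not: Ctsc at 0.18 (SE 0.18), Lgmn, an asparaginyl endopeptidase gene, at 0.08, the tripeptidyl peptidase gene Tpp1 at 0.05, Ctsl at 0.04, Ctso at -0.05 and Ctsf at -0.08.

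**Figure D3:**
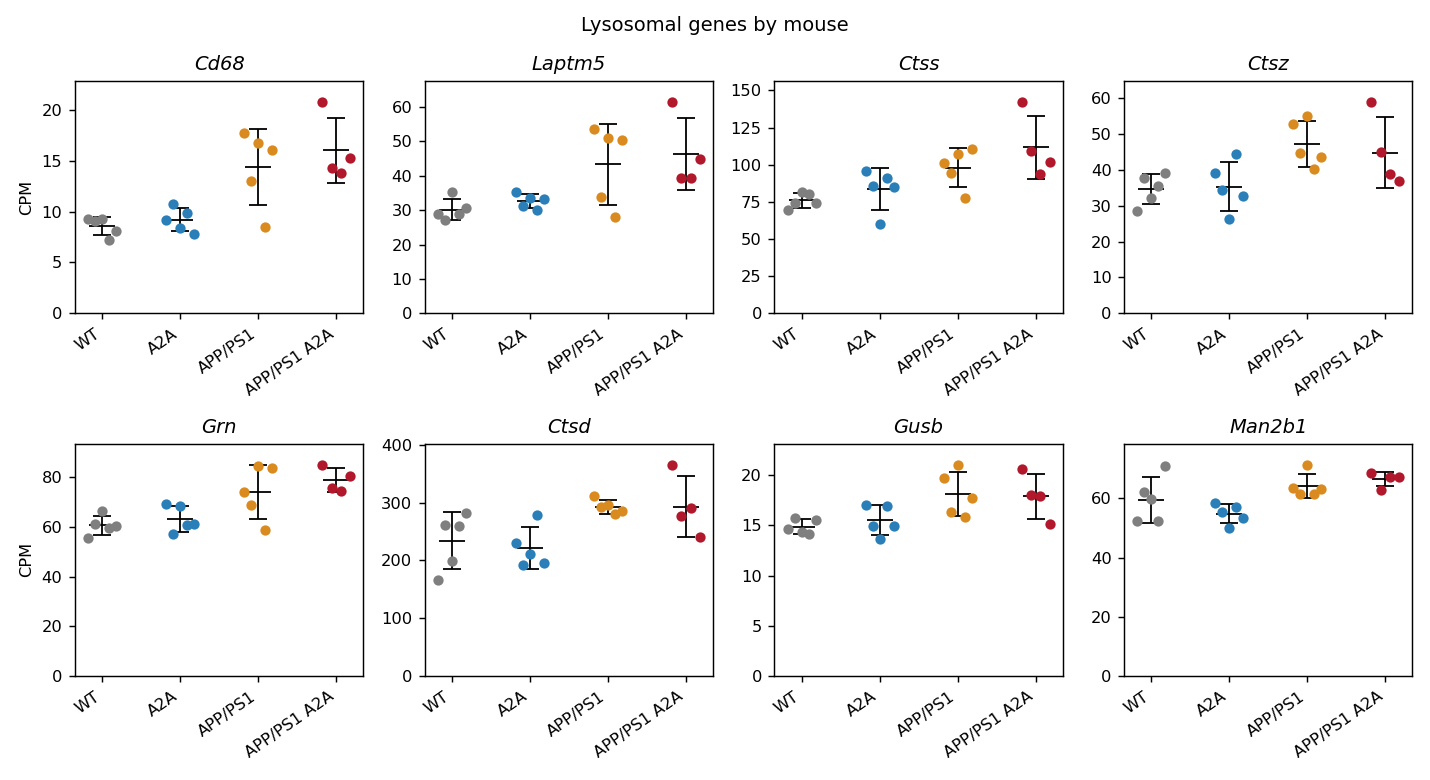
Level (CPM) of the 8 members of smallest p in each mouse (points) by group, with the group mean (bar) and SD (whiskers), n = 5, 5, 5 and 4. The 4 APP/PS1 A2A mice lie above the 5 A2A mice for Cd68, Laptm5, Grn and Man2b1, and the 5 APP/PS1 mice above the 5 WT mice for Ctsz and Gusb.

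Of the 8 glycosidases and sulfatase, 7 had averaged values above 0, with a median of 0.12. Gusb, the glucuronidase gene, measured 14.6, 15.7, 14.3, 14.1 and 15.6 CPM in WT and 17.1, 14.9, 13.6, 17.0 and 14.9 CPM in A2A. It was 19.7, 16.3, 21.0, 15.8 and 17.7 CPM in APP/PS1 and 20.5, 18.03, 17.9 and 15.1 CPM in APP/PS1 A2A. The APP/PS1 mice all lay above WT by a narrow margin, and 1 of the APP/PS1 A2A mice lay within A2A. The averaged value was 0.25 (SE 0.07, edgeR adjusted p = 0.333).

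Man2b1, which trims mannose from glycans, measured 52.2, 62.0, 59.7, 52.2 and 70.7 CPM in WT and 58.5, 55.3, 50.02, 56.9 and 53.5 CPM in A2A. In carriers it was 63.4, 61.4, 71.3, 61.5 and 63.1 CPM in APP/PS1 and 68.5, 62.9, 67.3 and 67.1 CPM in APP/PS1 A2A. Every APP/PS1 A2A mouse lay above every A2A mouse, whereas WT mice 2 and 5 lay within the range of the carriers. The averaged value was 0.19 (SE 0.05, edgeR adjusted p = 0.343). Hexa was at 0.17 (SE 0.07) and Gaa at 0.12 (SE 0.06), while the galactosidase genes Gla and Glb1 were both at 0.01, the sulfatase gene Galns at 0.13 (SE 0.10) and the sialidase gene Neu1 at -0.01.

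Progranulin, encoded by Grn, is a secreted glycoprotein that is cleaved to granulins in lysosomes, and it stood apart from the enzymes of lipid degradation with which it was grouped. WT mice had 55.6, 61.1, 66.4, 59.6 and 60.6 CPM and A2A mice 69.4, 57.1, 68.4, 60.8 and 61.2 CPM. APP/PS1 mice had 74.3, 69.1, 84.8, 58.7 and 83.8 CPM and APP/PS1 A2A mice 85.1, 76.0, 74.7 and 80.5 CPM. All carriers but APP/PS1 mouse 4 lay above all WT mice, and APP/PS1 mouse 2 was just below the highest A2A mouse. The averaged value was 0.30 (SE 0.06, edgeR adjusted p = 0.0628), which missed both thresholds of a call. The other 8 genes of the class lay between -0.07 and 0.06. Psap was at -0.00 (SE 0.06), Ppt1 at 0.03 (SE 0.04), the lipase gene Lipa at 0.06 (SE 0.11), and the cholesterol transfer genes Npc2 and Npc1 at 0.04 (SE 0.10) and -0.07 (SE 0.06). The ceramidase gene Asah1 was at 0.02, the GM2 activator gene Gm2a at -0.02 and the sphingomyelinase gene Smpd1 at -0.04, with SE of 0.05, 0.06 and 0.05.

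The 2 comparisons that make up the average share no mouse, so their values can be set side by side. In APP/PS1 versus WT, edgeR called 0 members, as against 0.054% of all genes, and 9 members were higher and 0 lower at an unadjusted p under 0.05 (1.38% and 0.88% of all genes). With the A2A transgene (APP/PS1 A2A versus A2A), edgeR again called 0 members (0.0648% of all genes), and 8 were higher and 0 lower at an unadjusted p under 0.05 (2.31% and 5.39% of all genes). Each of these counts of called members became 1, Cd68, with DESeq2 and without APP/PS1 mouse 4, while limma-voom called 0 in both. The shares of all genes called in those fits are not given here, so the counts cannot be set against them. Further settings are given in the closing section. Both values were above 0 for 19 of 37 members (51.4%, against 28.3% of all genes), and both were below 0 for 8. No overlap, with carriers higher, was found for Ctsz and Gusb between APP/PS1 and WT (0.259% of all genes) and for Cd68, Laptm5, Grn and Man2b1 between APP/PS1 A2A and A2A (0.998%). Over all 9 carriers against all 10 non-carriers it was found for 0 members (0.0648% of all genes).

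**Figure D4:**
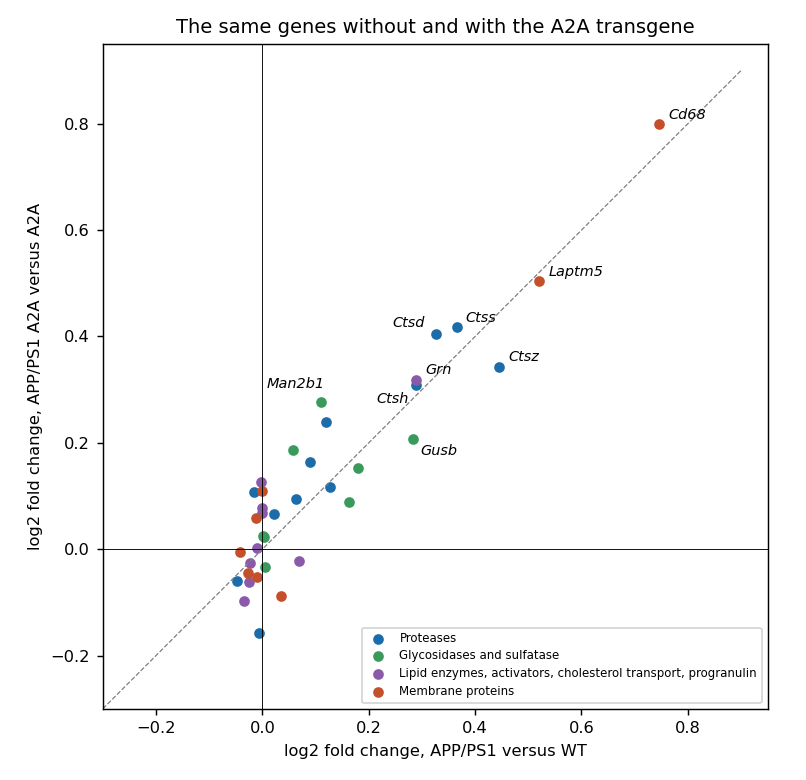
Log2 fold change of the 37 members in APP/PS1 A2A versus A2A against that in APP/PS1 versus WT, coloured by role, with equality as a dashed line. Cd68 lies at 0.75 and 0.80, Laptm5 at 0.52 and 0.50, and most other members lie within 0.2 of 0 on both axes.

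The A2A transgene itself was compared without and with APP/PS1. In A2A versus WT edgeR called 0 members, as it did 0 genes in all (0%), and at an unadjusted p under 0.05 there were 0 members higher or lower (1.98% and 1.46% of all genes). The members ran from -0.27 to 0.16 with a median of -0.02, the smallest p belonging to Ppt1 at -0.11 (SE 0.05) and Ctsl at -0.19 (SE 0.11). DESeq2 and limma-voom called 0 members as well. In 18 of 30 alternative fits, between 1 and 3 members lay under an unadjusted p of 0.05. Over the 30 fits, 1.04% to 2.53% of all genes were higher at that level and 0.806% to 2.65% lower. In 12 of the 30 Ppt1 was among these members, lower in A2A. They were DESeq2 and edgeR fits with other size factors, a stricter filter, only the groups compared or mice left out. The fits share mice, so a gene that recurs in them is not repeated evidence. Without A2A mouse 4, the members under that p were Ctsl (-0.27), Lamp2 (-0.39) and Gla (-0.18), all lower in A2A, against 2.30% of all genes lower in that fit. Without A2A mouse 3 it was Ctss, higher in A2A at 0.23. The fit without the mouse of most choroid plexus RNA in each group gave Lamp2 and Gla, both lower. The log2 fold changes of the 10 choroid plexus markers were all below 0 with a median of -1.10, 0 of them at an unadjusted p under 0.05. Their summed levels overlapped, with 301 to 9650 CPM in A2A and 420 to 11800 CPM in WT, and their part in these values was not tested.

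In APP/PS1 A2A versus APP/PS1, which shares its mice with the comparisons above, 0 members were called by edgeR, DESeq2 or limma-voom (0% of all genes by edgeR), and 0 were at an unadjusted p under 0.05 in either direction (0.81% higher and 2.06% lower of all genes). Ctss had the smallest p, at 0.19 (SE 0.13), then Ctsl at -0.15 (SE 0.12). Cd68 was at 0.15 with a 95% interval of -0.21 to 0.51. The difference between the APP/PS1 effects with and without the A2A transgene likewise gave 0 called members by each of these tools (0% of all genes by edgeR) and 0 at an unadjusted p under 0.05 (0.648% higher and 3.15% lower of all genes). The smallest p values were those of Man2b1, at 0.17 (SE 0.11), and Ctsf, at -0.15 (SE 0.11). For Cd68 the difference was 0.05 with a 95% interval of -0.45 to 0.56.

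Further lysosomal genes, taken as lists outside the 37, showed few differences in the averaged APP/PS1 comparison. Cst7, which encodes the cathepsin inhibitor cystatin F, rose by 4.65 (SE 0.33, edgeR adjusted p = 7.68e-08), and it was the only 1 of 4 cathepsin inhibitors called. Cst6 and Cst3, 2 other inhibitors, were at -0.82 (SE 0.30) and -0.32 (SE 0.13), both lower at an unadjusted p under 0.05 and not called. These averages join unlike values. In APP/PS1 versus WT all 4 inhibitors were above 0, but all except Cst7 (4.90) only barely, with a minimum of 0.007 and a median of 0.02. In APP/PS1 A2A versus A2A, 3 were below 0 and 2 were lower at an unadjusted p under 0.05 (5.39% of all genes). In the difference between the 2 effects, 2 were lower at that level (3.15% of all genes) and 0 were called. Slc11a1, a metal transporter of phagocyte lysosomes, rose by 0.75 (SE 0.12, edgeR adjusted p = 0.00675), 1 of 20 further membrane genes called, and the sialic acid transporter gene Slc17a5 was at 0.14 (SE 0.06). The 19 genes of the proton pump that acidifies lysosomes had a median of 0.01 and 0 at an unadjusted p under 0.05, with Atp6v1g1 at -0.13 (SE 0.07) and Atp6v1a at 0.14 (SE 0.09). The 12 genes that sort enzymes to lysosomes (median 0.04, Igf2r 0.09, Sort1 0.10) and 13 tested regulators of 14 (median 0.02, Tfe3 0.07, Mtor 0.08) also had 0 at that level. The gene Tfec had too few counts to test.

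Within groups, some members moved with choroid plexus RNA. Ctsc, which activates granule proteases, measured 10.5, 22.5, 9.61, 22.4 and 19.5 CPM in WT mice and 14.2, 9.78, 15.1, 17.2 and 14.01 CPM in A2A mice. It measured 13.6, 17.97, 16.3, 29.2 and 14.8 CPM in APP/PS1 mice and 12.6, 20.8, 16.2 and 16.8 CPM in APP/PS1 A2A mice. WT mice 2, 4 and 5, with marker sums of 9169, 8083 and 11800 CPM, were the high ones of their group, and APP/PS1 mouse 4, with 14700 CPM, was the highest of all. In a fit with the group means and the mean log2 level of the 10 markers, made after the data were seen, Ctsc rose by 0.21 per unit of that level (SE 0.03, edgeR adjusted p = 0.000295), and Lamp2 and Lipa rose by 0.14 each. In all, 9 of 37 members were positive at an adjusted p under 0.05 in that term (4.63% of all genes), the others being Glb1, Cd63, Ctsl, Npc2, Smpd1 and Psap. Laptm5 was the 1 negative member (0.939% of all genes). In the like fit on the microglial markers, 3 members were positive (1.42% of all genes), Ctss (1.28), Laptm5 (1.43) and Cd68 (1.52), and Gaa (-0.76) was the 1 negative (0.988% of all genes). In APP/PS1, the mouse with most choroid plexus RNA was also the one with least microglial RNA, and the relation of the 2 marker levels was not tested. None of the 9 positive members of the choroid plexus term was among the 12 at an unadjusted p under 0.05 for the APP/PS1 genotype, whereas Laptm5, the negative one, was.

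**Figure D5:**
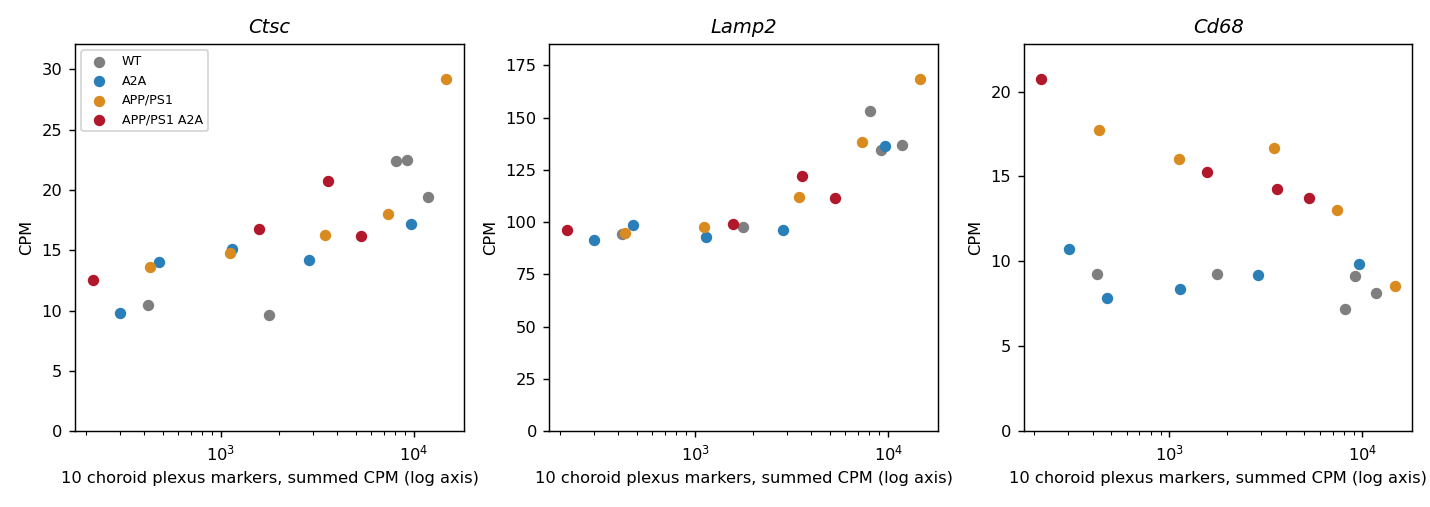
Level of Ctsc, Lamp2 and Cd68 (CPM) in each of 19 mice against the summed CPM of 10 choroid plexus markers on a log axis, coloured by group. Ctsc is highest (29.2 CPM) in the APP/PS1 mouse with a marker sum of 14700 CPM, where Cd68 is at 8.52 CPM.

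Promoters of the members were read for motifs, since many lysosomal genes carry the E-box to which the transcription factors TFEB and TFE3 bind, and many microglial genes carry sites of the myeloid factor PU.1. RefSeq start-site windows on GRCm38.p6, from 250 bases before to 50 after the start, were found for 32 of the 37 members. The E-box CACGTG, searched on both strands, was in the windows of 10 of these 32 members (31.2%), against 8.09% of all 27025 genes. The longer form TCACGTGA, which contains the E-box, was in 4 members (12.5%, against 1.12% of genes), Ctsa, Ctsd, Gla and Mcoln1. The PU.1-type motif GAGGAAGT was in 4 (12.5%, against 3.69%), Ctsc, Ctss, Gla and Gusb. Among members at an unadjusted p under 0.05 for the genotype, 2 of 10 with a window held the E-box, Ctsa and Ctsd, and among the other 22 it was 8. Stretches just before the start are given for a pair of members with the E-box and little change (Lamp1, chr8:13159011-13159160, plus strand, with 4 copies, and Glb1, chr9:114400928-114401075, plus strand) and for 3 members of small p without it (Cd68, chr11:69666171-69666320, minus strand, Ctss, chr3:95526636-95526785, plus strand, and Ctsz, chr2:174439040-174439189, minus strand), each from 5′ to 3′ along the gene's strand with the E-box in capitals. The PU.1-type motif of Ctss begins in the last bases of the stretch shown and runs past the start site.
Lamp1: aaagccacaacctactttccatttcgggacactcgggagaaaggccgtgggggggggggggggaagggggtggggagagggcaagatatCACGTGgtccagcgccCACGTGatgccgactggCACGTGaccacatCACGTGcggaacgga
Glb1: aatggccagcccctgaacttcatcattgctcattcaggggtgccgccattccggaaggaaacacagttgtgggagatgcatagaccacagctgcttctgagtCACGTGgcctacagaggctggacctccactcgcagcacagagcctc
Cd68: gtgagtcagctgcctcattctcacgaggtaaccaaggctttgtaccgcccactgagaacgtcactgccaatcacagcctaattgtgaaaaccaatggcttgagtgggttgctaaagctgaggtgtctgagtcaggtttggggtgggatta
Ctss: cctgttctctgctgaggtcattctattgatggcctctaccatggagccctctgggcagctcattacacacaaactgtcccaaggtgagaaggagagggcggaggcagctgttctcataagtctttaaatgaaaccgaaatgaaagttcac
Ctsz: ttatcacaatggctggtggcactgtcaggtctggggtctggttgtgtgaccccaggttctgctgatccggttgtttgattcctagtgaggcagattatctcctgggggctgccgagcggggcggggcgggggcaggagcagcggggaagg
A match of letters is a description of these windows and was not related by any test to the levels above.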

How the data were processed

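RNA of the hippocampus of 19 mice was compared between 4 groups given by the genotype labels. The authors prepared stranded libraries of poly(A) RNA, sequenced them as single reads, trimmed these, removed ribosomal reads, aligned the rest to mm10 with STAR 2.5.3a and counted reads per gene with HTSeq 0.6.1p1. The deposited values used here are these counts, without normalization, and the 9 deposited columns of the authors' own comparisons (fold changes and p-values from DESeq2 1.16.1) were not used.

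Of 35640 genes with a count, 18529 were kept by filterByExpr of edgeR (minimum count 10). They were scaled by TMM and fitted as 4 group means with edgeR 4.0.16 in R 4.3.3, with quasi-likelihood F-tests of 6 contrasts and Benjamini-Hochberg adjustment in each. The p-values measure the spread between these mice. No libraries of a group agreed within sampling noise. The scripts were tested on simulated data. Alternatives were DESeq2 1.42.0, limma-voom 3.58.1, other size factors and filters, only the groups compared, a term for choroid plexus markers and each mouse left out. Of the genes, members called in any contrast, the 8 of smallest p in the averaged contrast and Cd68 are given by mouse, and the 2 most abundant and the one of smallest p per class, and 2 per other contrast or list, by value. Ctsc is given by mouse after its values had been seen. The members and lists were chosen with earlier results of these data known. A list of further hydrolases is not reported here.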

Additional observations from a re-analysis of the deposited data

Results flagged for a closer look

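In each of 4 groups the 37 members were searched for a mouse that lies far from the rest of its group by Dixon's ratio, and 10 of 148 member and group pairs (6.76%) had one, where chance gives about 1 in 20. A2A mouse 4, the A2A mouse with most choroid plexus RNA, was highest for Lamp2 at 136 CPM (next 98.4), for Cd63 at 46.0 CPM (next 29.4) and for Gla at 15.3 CPM (next 12.9). APP/PS1 mouse 4 was highest for Ctsc at 29.2 CPM (next 17.97), and WT mouse 4 for Ctso at 56.4 CPM (next 47.0). In APP/PS1, mouse 3 was highest for Man2b1 at 71.3 CPM (next 63.4) and mouse 1 lowest for Lgmn at 90.8 CPM (next 107). In APP/PS1 A2A, mouse 1 was highest for Ctsa at 132 CPM (next 108), mouse 2 highest for Ppt1 at 128 CPM (next 116), and mouse 4 lowest for Cd63 at 23.98 CPM (next 30.2).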

How the results depend on the processing

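Cd68 was called in the averaged APP/PS1 comparison in all 26 fits listed under the processing above, with log2 fold changes of 0.70 to 0.84 and adjusted p of 5.47e-07 to 0.0155. With 1 mouse left out at a time, the members called in that comparison ranged from 1 to 4, and in each comparison of a single background from 0 to 1, the higher counts coming without APP/PS1 mouse 4. DESeq2 called 4 members in the averaged comparison and 1 in each of the 2 single comparisons. The shares of all genes called in these alternative fits are not given here, so the counts of members cannot be set against them. The choroid plexus term gave 2 there (Cd68 and Laptm5) and 1 in APP/PS1 A2A versus A2A. Of the settings added with the data already seen, leaving out the mouse of most choroid plexus RNA in each group gave 3 in the averaged comparison (Cd68, Grn and Laptm5) and 1 in each single comparison, the term for homeostatic microglia gave 0 there (Cd68 at 0.41, adjusted p = 0.216), and leaving out the 2 APP/PS1 mice of most red blood cell RNA (100 and 272 CPM) kept Cd68 at 0.77 (adjusted p = 0.0228). No called value reversed, and the cause of these differences was not tested. No scaling moved the median of all genes by as much as 0.1. Each mouse gave 1 library and belongs to 1 group, and the labels link no mouse to another, so no paired analysis was made. With 4 or 5 mice a group, small differences in single comparisons are the ones most limited, and whole-tissue RNA cannot separate cell number from level per cell.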
